A study of Mus musculus with 24 samples.

Results

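Selenoproteins of the endoplasmic reticulum (ER) were followed in mouse liver and brain through 5 genes, Selenof, Selenom, Selenok, Selenos and Selenon. They were taken by symbol, and all 5 were present among the 21894 genes of the expression table. The samples were liver and whole brain of inbred male C57BL/6J mice. From the age of 8 weeks the animals, raised on normal chow, had received for 5 weeks a selenium-free diet (0 ppm) or one supplemented to 0.1 ppm, 0.4 ppm or, at the most, 2.25 ppm. Each of the 8 groups of tissue and diet had 3 RNA-seq libraries, 24 in all, lettered a to c by their place in the table, and a shared letter does not pair libraries across groups. Values are normalised reads, the reads of a gene divided by 1 factor per library, and are given for single libraries or as mean ± SD with n = 3 libraries per group.

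Selenoproteins carry selenocysteine, which is inserted at a UGA codon that would otherwise end translation. This needs selenium, and in liver the transcripts of some selenoproteins are known to be lost first when selenium is short, since UGA read as a stop can expose an mRNA to nonsense-mediated decay if an exon junction lies downstream. The ER members act in the folding and quality control of secreted proteins: Selenof and Selenom are small thiol proteins of the lumen, Selenok and Selenos are membrane proteins of ER-associated degradation, and Selenon is a membrane glycoprotein tied to calcium uptake into the ER.

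The 5 genes are protein-coding and lie on mm10 (GRCm38) at chr3:144570304-144597680 on the plus strand (Selenof), chr11:3514684-3517351 plus (Selenom), chr14:29968308-29975662 plus (Selenok), chr7:66079649-66089405 plus (Selenos) and chr4:134537892-134552166 minus (Selenon). A value covers all exons of a gene. GENCODE M21 names 6 pseudogenes of Selenok, so its reads could be shared with copies and its value is uncertain. The selenocysteine codons of Selenof, Selenom, Selenok and Selenos are shown because selenium enters the protein there, and because their place in the gene differs among them. Each line gives the coding strand of the spliced GENCODE M21 transcript from 5′ to 3′, up to 30 bases on each side, with the selenocysteine codon in capitals.
Selenof: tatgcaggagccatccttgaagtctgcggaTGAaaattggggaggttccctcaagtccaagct
Selenok: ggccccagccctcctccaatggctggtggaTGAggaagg
Selenom: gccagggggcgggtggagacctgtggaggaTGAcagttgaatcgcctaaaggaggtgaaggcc
Selenos: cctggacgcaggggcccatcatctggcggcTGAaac

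In Selenof the codon is number 93 of 162, in exon 3 of 5 (chr3:144590645-144590647), with 78 bases from it to the last exon junction. In Selenom it is number 48 of 145, in exon 2 of 5 (chr11:3516273-3516275), with 135 bases to that junction. The codon stands almost at the end of the coding sequence in Selenok and Selenos. In Selenok it is number 92 of 94, in exon 4 of 5 (chr14:29973440-29973442), with 5 bases to the last junction. In Selenos it is number 189 of 190 and lies in exon 6 of 6 (chr7:66088844-66088846), with no junction after it.

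The libraries held between 11.538 and 18.4 M gene reads in liver and between 12.9 and 17.8 M in brain, and 3 reads were worth at most 5.32 normalised reads. The labelled tissues carried their markers: the summed level of 6 hepatocyte genes was 1.18e+06 to 2.01e+06 in liver against 1973 to 10307 in brain, and that of 5 neuron genes 46593 to 57939 in brain against 144 to 562 in liver. In brain, libraries 0 ppm a and 0.1 ppm b stood apart: the summed level of 5 pituitary hormone genes was 89040 and 52861 in them, and 41.9 to 586 in the other 10. Results for brain are therefore also given without them where they differ. In liver, the marker levels of some cell types moved with the deficient diet. The hepatocyte sum was 1.18e+06 to 1.48e+06 at 0 ppm and 1.53e+06 to 2.01e+06 in the 9 supplemented libraries, that of 5 liver endothelium genes 3489 to 3750 against 4118 to 4726, and that of 4 cholangiocyte genes 1279 to 1837 against 597 to 1132. Others overlapped: the sum of 5 Kupffer cell genes was 5373 to 7972 against 5645 to 9494. That of 5 stellate cell genes was 4605 to 5798 against 4637.5 to 6035. Fewer cells of a type and less RNA per cell cannot be told apart in such tissue samples, and the part of these markers in the liver differences below was not tested.

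The members differed in the tissue where they were most abundant. Selenof and Selenos were higher in liver and Selenom and Selenon in brain under each of 4 scalings, and Selenok was higher in liver except when libraries were scaled to total reads. On the log2(value + 1) scale, liver minus brain was 1.36 for Selenof (SE 0.03, adjusted p = 5.60e-21, limma) and 1.85 for Selenos (SE 0.05, adjusted p = 1.56e-19), which are 2.58-fold and 3.60-fold higher levels. Selenok differed by 0.39 (SE 0.04, adjusted p = 5.73e-09). Selenom differed by -5.04 (SE 0.15, adjusted p = 2.10e-18), 32.8-fold lower in liver, and Selenon by -2.57 (SE 0.10, adjusted p = 9.93e-17), 5.95-fold lower. All 5 passed the threshold of 0.05, and so did 91.2% of the 21889 genes tested, 35.7% higher and 55.6% lower in liver, with a median of -0.54 over all genes. The call is therefore shared with most genes, and the size of each difference depends on how the tissues are scaled to each other. Relative to the deposited factor, the shift of a gene's difference had a median over genes of 0.79 under quantile normalisation and of -0.90 with scaling to total reads. With the deposited factor Selenok was 0.94 above the median of all genes. With total reads it was 0.90 above that median moved by the shift of -0.90. Quantile normalisation shifts genes unequally, so its median shift does not place Selenok among all genes.

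**Figure D1:**
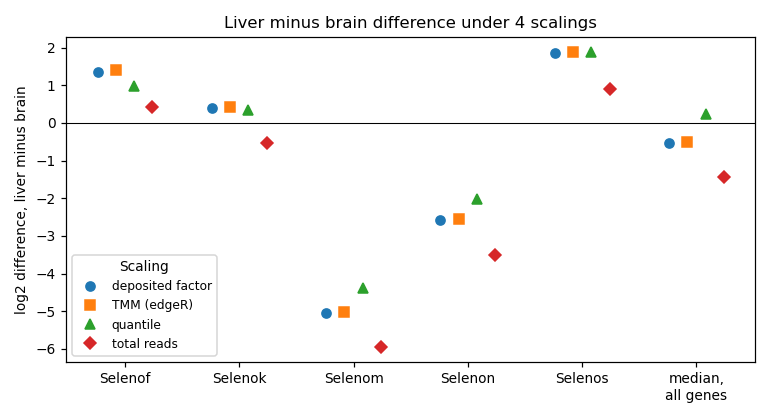
The log2 difference between liver and brain is plotted for each member under 4 scalings. The point for all genes is their median with the deposited factor, moved in the other scalings by the median shift over genes. Selenof and Selenos lie above 0 and Selenom and Selenon below 0 under each scaling. Selenok moves from 0.39 with the deposited factor to -0.54 with scaling to total reads, where the median shift over genes is -0.90.

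Per kilobase, the order of the members also differed between the tissues. In brain Selenom was first, with 515 ± 89.1 normalised reads per kb of merged exons (SD, n = 12), and Selenon last with 103 ± 11.454. Selenok followed Selenom with 420 ± 24.005, and the ranges of these 2 overlapped. Selenos, 233 ± 18.5, and Selenof, 229 ± 10.1, overlapped as well. In liver the order was Selenos with 843 ± 89.3, Selenof with 590 ± 40.8, Selenok with 554 ± 54.0, Selenon with 17.3 ± 3.45 and Selenom with 15.6 ± 5.36. Selenof and Selenok overlapped in liver, as did Selenon and Selenom. Counting only the principal transcript, which for Selenof has 1514 bases against 5819 in merged exons, put Selenof first in liver at 2268 ± 157 and Selenom before Selenon. In brain the same choice moved Selenof from the fourth place to the second, at 879 ± 38.7, after Selenom at 1079 ± 187 and before Selenok at 474 ± 27.1, and its range overlapped that of Selenom. Selenom thus went from the first place in brain to the last or the last but 1 in liver.

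The first diet question was how liver without dietary selenium compares with the 3 supplemented diets. Selenof, a partner of the folding sensor UGGT, stood at 3208, 3151 and 3019 normalised reads in 0 ppm a, b and c. In the 9 supplemented livers it ranged from 3239 to 3703, so every 0 ppm library was below every supplemented one. Group means were 3126 ± 96.7 at 0 ppm and 3526 ± 27.4, 3513 ± 237 and 3572 ± 226 at 0.1, 0.4 and 2.25 ppm. The log2 difference was -0.18 (SE 0.06, 95% interval -0.30 to -0.05), with an unadjusted p of 0.00867 and an adjusted p of 0.0888 by limma, which misses the threshold. Of the 18945 liver genes tested, 5.13% had 0 ppm libraries all above or all below the supplemented ones, and Selenof was the 1 member of 5 that did.

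Selenok, a membrane protein that binds the palmitoyl transferase Zdhhc6 and, in human cells, the ATPase p97, went the other way. It measured 1275, 1197 and 1045 in 0 ppm a, b and c, against 949 to 1116 in the supplemented livers. Libraries a and b were above all supplemented ones and c was among them. The difference was 0.22 (SE 0.07, interval 0.06 to 0.37, unadjusted p 0.00882, adjusted p = 0.0896, limma). The call turned on single libraries and on the scaling. Without 0 ppm c the difference was 0.30 and passed (adjusted p = 0.0228), and without 0 ppm a it was 0.15 (adjusted p = 0.389). It also passed under quantile normalisation (0.25, adjusted p = 0.0453) and with scaling to total reads (0.31, adjusted p = 0.0161).

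Selenos, which in human cells links p97 to derlin channels in the ER membrane, measured 1335, 1201 and 1042 at 0 ppm and 1088 to 1415 in the supplemented livers. The groups overlapped, and the difference was -0.08 (SE 0.09, interval -0.27 to 0.10, adjusted p = 0.661). As for Selenok, library 0 ppm c was the lowest of its group.

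Selenom and Selenon were near the floor of this assay in liver. Selenom had 8 to 26 whole reads per library, and its values at 0 ppm, 13.5, 18.8 and 27.5, lay within the supplemented range of 12.003 to 37.0. Counting error alone gives a coefficient of variation of 25% at its mean of 16 reads. Over the 12 livers of all 4 diets it was 30.9% for whole reads and 34.2% for normalised reads. Its difference of -0.25 had an interval from -0.96 to 0.46 (adjusted p = 0.745), so a change in either direction could have been missed at this depth. Selenon, with 32 to 64 reads, measured 66.5, 50.03 and 76.9 at 0 ppm against 45.5 to 87.5, a difference of 0.06 with an interval from -0.36 to 0.48 (adjusted p = 0.924).

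None of the 5 members thus passed at 0 ppm in liver by limma, while 2 had an unadjusted p under 0.05. Over all genes 6.61% passed, 2.2% higher and 4.41% lower, and 3833 of 18945 had an unadjusted p under 0.05. Some other selenoprotein genes moved further. Of the 17 others tested, 7 fell and 2 rose, with a median difference of -0.30 against 0.00 over all genes. Selenot, at -0.03 (SE 0.06), and Gpx4, at 0.10 (SE 0.06), were among those not called. Selenow, a small cytosolic selenoprotein, fell by 1.73 (SE 0.07, adjusted p = 9.26e-09), and Gpx1, the cytosolic glutathione peroxidase, by 1.40 (SE 0.07, adjusted p = 2.47e-07). The steepest member, Selenom, was at -0.25 with an SE of 0.33. From codon to last exon junction there are 243 bases in Selenow and 105 in Gpx1, against 135 in Selenom and 78 in Selenof. There are 136 in Selenoh, which was at -1.15, 342 in Gpx4 and 470 in Selenot. Of the others that fell, Selenop, at -0.65, has 357 from its first such codon, and Msrb1, at -0.30, has 34. In Txnrd2, at -0.35, and Selenoo, at -0.32, which also fell, no junction follows the codon. The same holds for Selenoi and Sephs2, which rose by 0.29 and 0.30. Whether this distance bears on the differences was not tested.

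**Figure D2:**
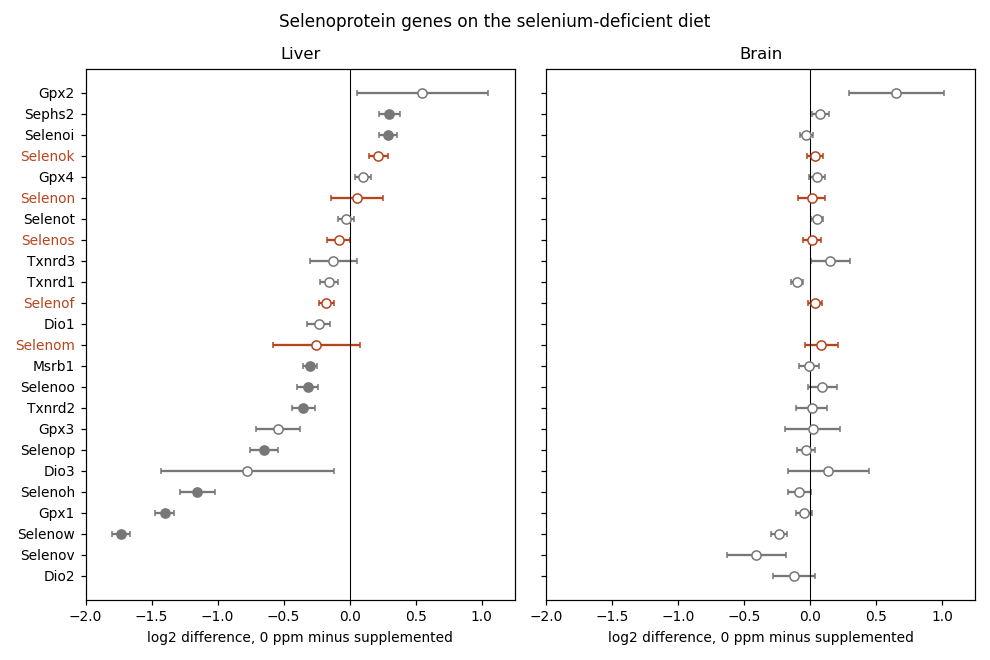
Each row is a selenoprotein gene, with the ER members in red; the x axis is the log2 difference between 0 ppm and the 3 supplemented diets, bars are 1 SE from limma, and filled points passed an adjusted p of 0.05. In liver the members lie between -0.25 and 0.22 with open points, above Selenow at -1.73 and Gpx1 at -1.40, and in brain every point is open.

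Other ER genes in deficient liver were counted by list, beside the 6.61% of all genes that passed. Of 30 genes of ER-associated degradation tested, 1 rose: Vcp, the ATPase p97, by 0.25 (SE 0.07, adjusted p = 0.0465). That call is fragile, since it was lost in 12 of 19 alternatives, among them those without 0 ppm a or b, without any library of 0.1 or 0.4 ppm, and without 2.25 ppm a or b (adjusted p up to 0.253). Derl1, a derlin channel, was at 0.21 (SE 0.06, adjusted p = 0.0505), and passed in 6 of 19 alternatives, with a filter at 4 (adjusted p = 0.0447), quantile normalisation (0.00722), edgeR (0.0304) or total reads (0.00533), and without 0 ppm c (0.00744) or 0.1 ppm a (0.0462). Of 9 genes of the calnexin and UGGT cycle, Calr, the lectin chaperone calreticulin, rose by 0.51 (SE 0.10, adjusted p = 0.00900). It missed the threshold without 0 ppm a (0.0772) and in the limma fit without a mean-variance trend (0.0567). Uggt1, the folding sensor that binds Selenof, was at 0.02 (SE 0.09, adjusted p = 0.940). Of 20 ER oxidoreductases, Pdia6, a protein disulfide isomerase, rose by 0.54 (adjusted p = 0.00663), lost without 0 ppm a (0.0586) or without that trend (0.0547). Ero1l, the oxidase that recharges these isomerases, fell by 0.28 (adjusted p = 0.0182), lost without 0 ppm b or c, and Txndc11, a thioredoxin-domain protein, fell by 0.30 (adjusted p = 0.0131), lost without 0 ppm a.

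Of 16 genes of ER calcium handling, 3 fell. Itpr1, an IP3 receptor and, through Zdhhc6 and Selenok, a target of palmitoylation, fell by 0.57 (SE 0.09, adjusted p = 0.00200) and passed in all 19 alternatives. Itpr2, another IP3 receptor, fell by 0.34 (adjusted p = 0.0216), and missed the threshold when either 0 ppm a or 0 ppm b was left out. Stim2, an ER calcium sensor, fell by 0.37 (adjusted p = 0.0354), lost without 0 ppm a, 0.1 ppm b or c, or 0.4 ppm a or b (adjusted p up to 0.229). Zdhhc6 itself was at -0.07 (SE 0.06, adjusted p = 0.520). Of 18 ER stress sensors and factors, 1 fell, Atf6, by 0.25 (adjusted p = 0.0269), lost without 0 ppm b or c or 0.4 ppm a or b (adjusted p up to 0.0987 for these). With scaling to total reads the falls of Ero1l, Txndc11, Itpr2, Stim2 and Atf6 no longer passed (adjusted p = 0.0912, 0.103, 0.112, 0.123 and 0.129). Quantile normalisation lost Stim2 and Atf6 (adjusted p = 0.0513 and 0.0592). The limma fit without a mean-variance trend kept Itpr1 but lost Vcp, Calr, Pdia6, Ero1l, Txndc11, Itpr2, Stim2 and Atf6 (adjusted p from 0.0512 to 0.136). The list of degradation genes had a median of -0.04 and that of calcium handling -0.18, beside 0.00 for all genes.

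Next came the step above the 0.1 ppm diet. Between 0.4 and 0.1 ppm in liver 0 of 5 members passed, with 1.49% of all genes called. Selenos was 1409, 1399 and 1188 at 0.4 ppm a, b and c, against 1088, 1120 and 1222 at 0.1 ppm, so the groups overlapped through 1 library. Its difference was 0.22 (SE 0.10, interval -0.01 to 0.44, adjusted p = 0.335, limma). The other 4 members differed by -0.29 to -0.01.

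At 2.25 ppm, the highest dose, many ER genes rose in liver above their level at 0.1 ppm. None of the 5 members passed, beside 7.85% of all genes, 4.23% higher and 3.62% lower. At that share, the absence of a call does not set the members apart. Selenos measured 1172, 1350 and 1415 at 2.25 ppm a, b and c, and its lowest value lay within the 0.1 ppm range, for a difference of 0.20 (SE 0.10, interval -0.03 to 0.42, adjusted p = 0.302). Selenof, at 3703, 3702 and 3311, differed by 0.02 (SE 0.07), and Selenok, at 960, 970 and 1116, by -0.01 (SE 0.09). Selenom differed by -0.03 (SE 0.41, interval -0.90 to 0.84) and Selenon by -0.26 (SE 0.24, interval -0.78 to 0.25, adjusted p = 0.594). A rise of Selenom or Selenos within its interval could have been missed.

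Around them, 10 of 18 ER stress sensors and factors rose and 0 fell, with a median of 0.67 against 0.00 for all genes. Ern1, the sensor IRE1, rose by 0.88 (SE 0.12, adjusted p = 0.000781), Manf, a secreted ER stress factor, by 1.51 (SE 0.25, adjusted p = 0.00245) and Ddit3, the transcription factor CHOP, by 1.197 (SE 0.20, adjusted p = 0.00262). Of 30 degradation genes 5 rose and 1 fell. Syvn1, the ubiquitin ligase HRD1, rose by 1.71 (SE 0.27, adjusted p = 0.00220), its adaptor Sel1l by 0.89 (SE 0.15) and Derl2, a derlin, by 0.56 (SE 0.11). Vcp was at 0.01 (SE 0.09) and Derl1 at -0.06 (SE 0.07). The fallen gene, Ubxn8, which tethers p97 to the membrane, was at -0.25 (adjusted p = 0.0420) and lost its call in 13 of 20 alternatives, including the omission of any library but 0 ppm b and c. Vcp and Derl1, the fixed partners of Selenok and Selenos in this list, did not pass. Derl2, also a derlin, passed here and in all 20 alternatives, so the derlins of the list did not all stay uncalled.

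Among the 9 genes of the calnexin and UGGT cycle 6 rose. Calr rose by 0.73 (SE 0.13, adjusted p = 0.00363) and Mlec, an ER lectin, by 0.63 (SE 0.12, adjusted p = 0.00512). Uggt1 rose by 0.44 (SE 0.11, adjusted p = 0.0312), but not after omission of a or b at 0.1 ppm or of a or c at 2.25 ppm (adjusted p up to 0.133). Of 20 oxidoreductases 2 rose, Pdia4 by 1.31 (SE 0.23, adjusted p = 0.00396) and Ero1lb by 0.79 (adjusted p = 0.0326), the latter lost without any library of 0.1 ppm or without 2.25 ppm a or c (adjusted p up to 0.135). Of 16 calcium genes 2 rose: Atp2a2, the calcium pump SERCA2 that Selenon is known to regulate, by 0.93 (SE 0.17, adjusted p = 0.00467), and Itpr1 by 0.45 (adjusted p = 0.0233), the latter lost without 0.1 ppm b or c or 2.25 ppm a or c (adjusted p up to 0.0963). Of the other 17 selenoproteins Selenoi, an ethanolamine phosphotransferase, rose by 0.49 (SE 0.09, adjusted p = 0.00387), and Selenoo, a mitochondrial selenoprotein, fell by 0.54 (SE 0.10, adjusted p = 0.00459). In the limma fit without a mean-variance trend, the rises of Uggt1, Ero1lb and Itpr1 were also lost (adjusted p = 0.111, 0.117 and 0.0913). Some of the risen genes were also high at 0 ppm, and others were not. At 0, 0.1 and 2.25 ppm Calr was 21300 ± 3281, 11745 ± 1038 and 19558 ± 3330. Ern1 was 2171 ± 210, 1371 ± 62.9 and 2537 ± 346. Ddit3 was 156 ± 25.3, 145 ± 48.7 and 324 ± 44.3. Atp2a2 was 4159 ± 702, 4069 ± 1193 and 7589 ± 794. No separate test compared 0 with 0.1 ppm.

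**Figure D3:**
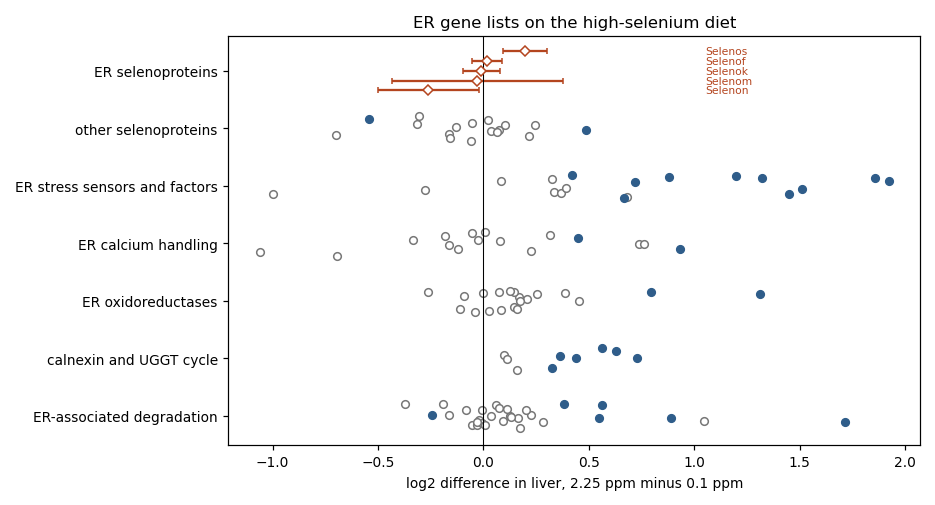
Points are liver genes of 6 lists, placed by their log2 difference between 2.25 and 0.1 ppm, filled where the adjusted p was under 0.05; the 5 ER selenoproteins are red diamonds with bars of 1 SE, named at the right in the same order. The members lie between -0.26 and 0.20 with no call, while 10 of 18 ER stress genes are filled and have a median of 0.67 over the list.

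The promoter of Selenos is shown because SELENOS is known in human cells as an ER stress-responsive gene, and 10 of 18 ER stress genes rose in liver at 2.25 ppm. The 250 bases before its RefSeq start site (GRCm38.p6, chr7:66079399-66079648, plus strand) are given from 5′ to 3′, with the letters CCAAT and CCACG, on either strand, in capitals.
Selenos: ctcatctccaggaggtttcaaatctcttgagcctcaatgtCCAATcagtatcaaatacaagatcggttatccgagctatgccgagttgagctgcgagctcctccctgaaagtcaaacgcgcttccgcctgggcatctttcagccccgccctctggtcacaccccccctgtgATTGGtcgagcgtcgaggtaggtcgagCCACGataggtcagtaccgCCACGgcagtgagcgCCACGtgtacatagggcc

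RefSeq windows of 250 bases before to 50 bases after the start site matched all 5 members and were searched on both strands. CCACG, the part of the ER stress element bound by XBP1 and ATF6, occurred 3 times in Selenos, beginning at positions -52, -33 and -18, 2 times in Selenof and 1 time in Selenok, and in 32.8% of 32851 windows. The Selenos match at -18 overlaps a match of ACGTG, which also occurs in Selenom and in 19.6% of windows. CCAAT occurred 2 times in Selenos, 2 times in Selenof and 1 time in Selenok, and in 37.4% of windows. The full element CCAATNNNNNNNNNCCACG (0.119% of windows), its variant ATTGGNCCACG (0.0365%), TGACGTG (2.01%) and TGATGNAAT (0.965%) matched in none of the members. TGACNNNGC, the antioxidant response core, occurred once in Selenok and in 12.4% of windows. A match is a description of these letters, and no match says only that they are not in the window.

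**Figure D4:**
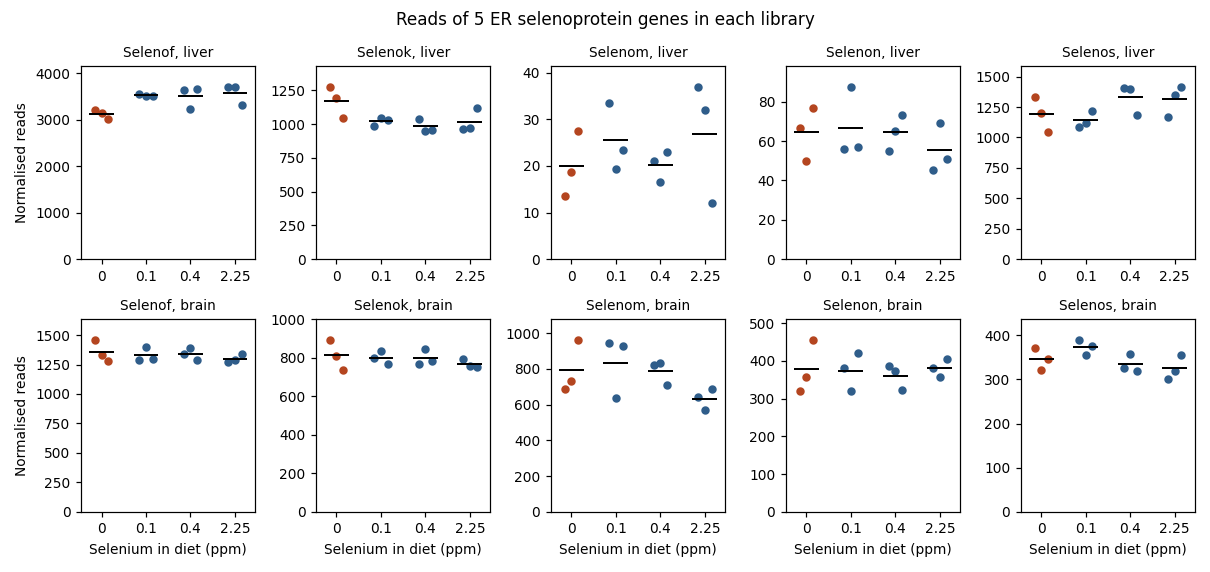
Each panel is a member in liver or brain, each point a library, and the bar the mean of 3; the y axis is normalised reads from 0 and differs between panels, and the x axis is selenium in the diet in ppm, with the 0 ppm diet in red. Selenof in liver is the panel where the 0 ppm points, at 3019 to 3208, lie below all others.

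In brain no member passed in any diet comparison, with or without the pituitary-rich libraries. Between 0 ppm and the supplemented diets 0 of 5 passed, with 0.0189% of the 21127 genes tested (4 genes) called. The differences ran from 0.01 to 0.09. The interval for Selenof was -0.07 to 0.15 and that for Selenok -0.09 to 0.17. Between 0.4 and 0.1 ppm none passed either (0.00947% of all genes, 2 genes), and Selenos was lowest at -0.16 (SE 0.08, adjusted p = 0.666).

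At 2.25 ppm in brain, Selenom and Selenos were the lowest members. Selenom, which is high in brain and has been tied to calcium in neurons, measured 641, 569 and 686 at 2.25 ppm and 945, 636 and 926 at 0.1 ppm. The 2.25 ppm libraries lay below 0.1 ppm a and c, and 0.1 ppm b lay among them. Its difference was -0.38 (SE 0.15, interval -0.71 to -0.06, unadjusted p 0.0234, adjusted p = 0.293). Without the pituitary-rich libraries, of which 0.1 ppm b is one, it was -0.57 (adjusted p = 0.111). Selenos measured 300.0, 319.5 and 356 against 390.0, 354 and 375, overlapping through 1 library, with a difference of -0.20 (SE 0.08, unadjusted p 0.0332, adjusted p = 0.329). Of all genes 0.435% passed, and 0 of the 5 members did. The ER stress list had 2 of 18 higher in this comparison, Xbp1, the factor spliced by IRE1, at 0.58 (adjusted p = 0.0273) and Creld2, an ER chaperone-like protein, at 0.66 (adjusted p = 0.0306). Each was lost in 10 of 21 alternatives, among them the fits without 0.1 ppm a, b or c, 0.4 ppm b, or 2.25 ppm a or c (adjusted p up to 0.111 and 0.117). Xbp1 was also lost without 2.25 ppm b, and Creld2 without 0.4 ppm c. Without both pituitary-rich libraries neither passed (adjusted p = 0.0861 for Xbp1 and 0.117 for Creld2), nor did they with only the 6 libraries compared (0.0866 and 0.111).

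Over any difference among the 4 diets, 0 of 5 members passed in liver, with 10.9% of genes called, and 0 of 5 in brain, with 0.0189%. The tissues were also set against each other directly. The 0 ppm difference in liver minus that in brain was -0.21 for Selenof (SE 0.07, unadjusted p 0.00578, adjusted p = 0.134) and 0.18 for Selenok (SE 0.09, adjusted p = 0.403). Neither passed, while 1.98% of 21889 genes did. For 2.25 against 0.1 ppm, Selenos differed most between tissues, by 0.40 (SE 0.14, interval 0.11 to 0.68, unadjusted p 0.00940, adjusted p = 0.147), being 0.20 in liver and -0.20 in brain. It did not pass, with 2.69% of genes called.

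Within a tissue, the members varied over the 12 libraries together with other genes. The 3 most alike by Pearson's r of log2(value + 1) were taken among genes with a mean of at least 100 normalised reads, 8993 or 8994 in liver and 10317 in brain. These are descriptions over libraries that share diet and scaling, with no test. In liver Selenok was most like Vcp (r = 0.96), the gene of p97, then Psmd1, a proteasome subunit (0.94), and Hnrnpa3, an RNA-binding protein (0.93). Vcp measured 7656, 7435 and 6137 in 0 ppm a, b and c and 5679 to 6312 in the supplemented livers, so that for both genes a and b were high and c was not. Selenos was most like Txndc5, an ER thioredoxin-domain isomerase (0.94), Kdelr2, the receptor that returns proteins to the ER (0.92), and Eif3b, a translation initiation subunit (0.91). Txndc5 was 3907, 3662 and 3062 at 0 ppm, with c again the lowest. Selenof was most like Gusb, the lysosomal beta-glucuronidase (0.92), Aldh1l1, a folate enzyme (0.91), and Sypl (0.88). Selenon, at 32 to 64 reads per library, was most like Fuom, a fucose mutarotase (0.80).

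**Figure D5:**
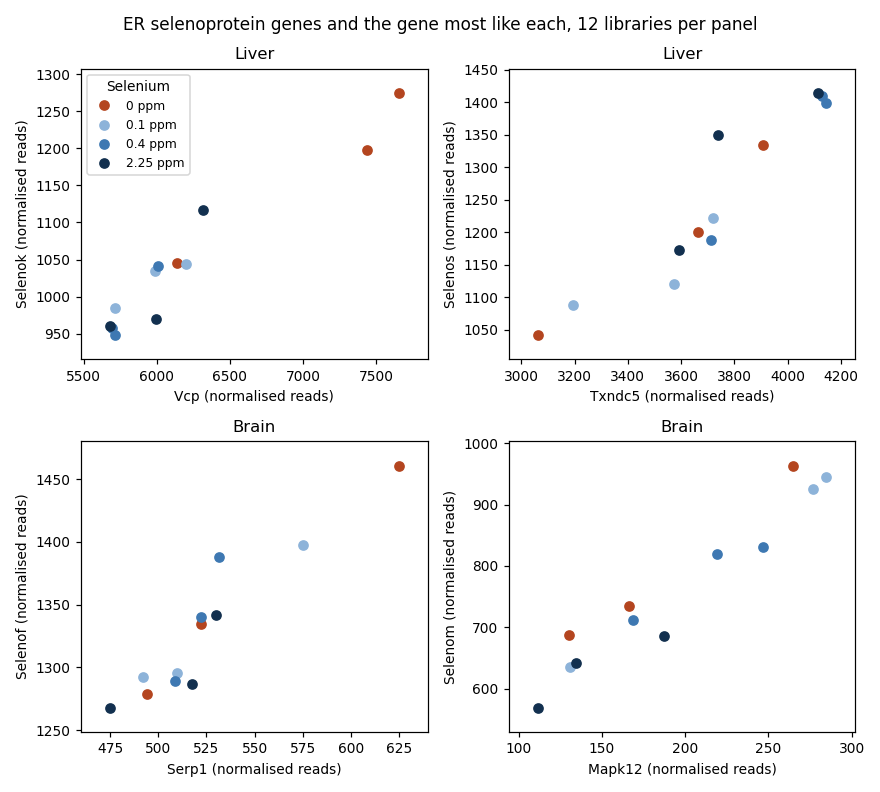
Each panel plots a member against the gene most like it over 12 libraries of a tissue, on axes in normalised reads that do not start at 0, with diets by colour. In liver, 0 ppm a and b are at the upper right for Selenok and Vcp while 0 ppm c lies with the supplemented libraries, and in brain Selenom runs from 569 to 964 with Mapk12.

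In brain Selenof was most like Serp1, a stabiliser of membrane proteins in the ER under stress (r = 0.94). Serp1 and Selenof were both highest in 0 ppm a, at 625 and 1461, and next in 0.1 ppm b, at 575 and 1397, the pituitary-rich libraries. Selenok was most like Rps7 (0.91) and Rpl38 (0.89), both ribosomal proteins, and was also highest in 0 ppm a, at 894. Selenom was most like Mapk12, a p38 kinase (0.96), Plekhh3 (0.96) and Pacsin3 (0.96). Selenon was most like Rmdn3 (0.93), Il11ra1 (0.91) and Lhx1, a homeobox factor of Purkinje cells (0.90). Lhx1 ranged from 69.6 in 0.1 ppm b to 262 in 0 ppm c, and Selenon was 321 and 456 in the same libraries. Selenon was lowest, at 321 and 321, in the pituitary-rich pair, but it was nearly as low, at 323, in 0.4 ppm c. Selenom stood at 687 and 636 in that pair and reached 964 in 0 ppm c. Its values at 2.25 ppm, 641, 569 and 686, were as low in libraries that are not pituitary-rich. The part of pituitary tissue, or of the brain region sampled, in these levels was not tested. Among the members themselves, Selenof and Selenok had r = 0.80 in brain and -0.58 in liver, and Selenom and Selenon 0.62 in brain and -0.07 in liver.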

How the data were processed

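The deposited table held a normalised signal for each gene in 24 libraries. The values show that the authors scaled the reads of every library by 1 factor: times that factor, all 525456 values (100%) were whole reads to within 0.01. These factors equalled the size factors that median-of-ratios scaling gives. Libraries were made with a stranded total RNA kit, per the labels' protocols, and the submitters' processing notes name RSEM 1.3.0, STAR 2.5.2b, limma 3.34.5, Trimmomatic 0.33, bcl2fastq 2.17 and build mm10. Diets and tissues were compared in R 4.3.3 by limma 3.58.1, applied with a mean-variance trend to log2(value + 1) of genes that reached 1 in 3 or more libraries. A tissue's 12 libraries, or all 24 between tissues, entered a single fit, and Benjamini-Hochberg adjustment of p-values covered every gene tested. Fold changes on this scale understate changes of low genes. Supplemented means the average of the 3 group means at 0.1, 0.4 and 2.25 ppm.

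The fit was tested on simulated counts. Alternatives were no filter, a filter at 4, a pseudocount of 0.1, quantile normalisation, no trend, only the 6 libraries compared, edgeR 4.0.16 (quasi-likelihood test, TMM factors) on the recovered reads, and each library left out in turn. Scaling to total reads and leaving out the 2 pituitary-rich brain libraries were chosen after seeing the data. The members, gene lists and markers were chosen with earlier results of these data known. From each list the text names called genes, by smallest adjusted p first, and fixed partners of the members (Zdhhc6, Derl1, Vcp, Uggt1). The labels do not say whether libraries came from separate mice, so the p-values measure the spread between libraries, which may be technical. For library pairs of a group the chi-square per gene was 4.29 to 62.0, more than sampling noise gives, and every library counted as a replicate. The 95% intervals come from the limma fit and likewise reflect the spread between libraries, while the coefficients of variation expected from read counts and the value of 3 reads cover counting error only. A codon window and a gene that the rules took are not reported here.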

Additional observations from a re-analysis of the deposited data

Results flagged for a closer look

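The difference between diets itself differed between liver and brain, by limma over all 24 libraries, for 14 values of genes in the lists around the members, and for none of the 5 members. Of the 21889 genes tested, 1.98% passed for 0 ppm and 2.69% for 2.25 ppm, so 0 of 5 does not set the members apart. Values are the log2 difference in liver minus that in brain. For 0 ppm against the supplemented diets these were -1.50 for Selenow, -1.35 for Gpx1, -1.07 for Selenoh, -0.62 for Selenop, 0.32 for Selenoi and -0.30 for Msrb1. The first 4 passed in all 32 alternatives, while Selenoi and Msrb1 were lost in 22 and 23 of them. For 2.25 against 0.1 ppm they were 1.59 for Syvn1, 0.88 for Ern1, 1.11 for Ddit3, 0.95 for Atp2a2, 0.81 for Sel1l, 0.52 for Atf4, 1.21 for Hyou1 and 0.38 for Selenoi. Syvn1, Ddit3 and Atp2a2 passed in all 32 alternatives. Ern1 was lost under quantile normalisation and Sel1l without brain 0.1 ppm a. Atf4, Hyou1 and Selenoi were lost in 14, 18 and 18 alternatives.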

How the results depend on the processing

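Of 1120 values of the members for diet under the alternatives, 1116 kept their direction or stayed uncalled, and 4 passed the threshold, all for Selenok in liver. At 0 ppm in liver the count of members called was 0, and it was 1 under quantile normalisation and 1 with scaling to total reads, and 0 to 1 without single libraries (1 without 0 ppm c). For any difference among diets in liver it was 1 with scaling to total reads (adjusted p = 0.0486). Of 160 values between tissues, 159 kept call and direction, and Selenok reversed to -0.54 with scaling to total reads, against 0.39. Counts over all genes moved more: 488 (no trend) to 1509 (without 0 ppm c) for 0 ppm in liver, against 1252, 41 to 623 for 0.4 ppm, against 282, 692 to 1820 for 2.25 ppm, against 1487, and 583 to 2504 for any diet, against 2056. In brain they ran from 1 to 10, 0 to 4, 0 (only the 6 libraries compared) to 149 and 1 to 13, against 4, 2, 92 and 4, and for the tissue differences from 185 to 818, against 433, and from 330 to 747, against 589. No paired analysis was possible because the columns carry no replicate number. With 3 libraries per group, and with 8 to 26 reads for Selenom and 32 to 64 for Selenon in liver, small changes of these genes could not be detected.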
